A study of Mus musculus with 7 samples.

Results

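IgG1 B cells were defined as cell barcodes with exactly 1 productive heavy chain contig whose constant region call was IGHG1. They were read from single-cell B cell receptor libraries of deep cervical (dCLN), superficial cervical (sCLN) and inguinal (iLN) lymph nodes of 5xFAD and wild-type (WT) mice. They numbered 116 of 17381 cells with 1 productive heavy chain, and of the 17178 such cells with an isotype call. The 5xFAD dCLN library held 32 of them and the WT dCLN library 13. The 5xFAD sCLN library held 19 and the WT sCLN library 34. The 5xFAD iLN library held 7 and the WT iLN library 11. The 5xFAD line is a transgenic model whose transgenes are driven by a Thy1 promoter, which is active in neurons, and it develops amyloid deposits in the brain. Mice labelled WT served as the comparison, and all animals were females of 10 to 11 months. Every library pooled cells labelled with hashtag antibodies, and the number of animals behind each is not given in the sources used here. Each node of each genotype had 1 library, so differences within a node compare libraries. Tests used the 6 libraries as units, so p-values measure the spread between these libraries, and whether libraries share animals is not given. The 13024 IgM cells of the same libraries were the comparison for each measure. The tables hold receptor contigs alone, so the label was read from the constant region call and no further marker of B cells or plasma cells was used here.

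IgG1 is made when a B cell replaces the IgM constant region of its antibody with the one encoded by IGHG1, by class switch recombination. In the mouse this switch is favoured by interleukin-4 and T cell help. The same enzyme, activation-induced cytidine deaminase (AID), also introduces point mutations into the V regions of B cells that respond in germinal centres, and cells with improved binding are selected there. IGHG1 lies on the minus strand of chromosome 12 at 113325240 to 113330523 (GRCm38), between IGHG3 (113356224 to 113361232) and IGHG2B (113302965 to 113307933).

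The 6 libraries held between 99906 and 312484 receptor UMIs in 2398 to 4411 barcodes. Between 2.42% and 3.10% of the barcodes of a library also occurred in another library, among them 5 IgG1 cells, 2 of the 5xFAD sCLN and 3 of the WT sCLN. There were 135 IgG1 contigs in all, and 19 of them, in 18 barcodes, were left out because the barcode held a second heavy chain. The other heavy chain was IgM in 12 of these 19, and the IgG1 contig had more UMIs than the other in 5. In the WT dCLN, 31.6% of IgG1 contigs were left out this way, against 8.33% to 12.8% in the other 5 libraries and 5.65% to 10.9% of IgM contigs. A light chain was found in 112 of the 116 cells, 1 in 108 cells and 2 in 4 cells.

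IgG1 cells were rare in all nodes, and the 5xFAD dCLN library had more of them than the WT dCLN library. IgG1 made up 0.828% of cells with an isotype in the 5xFAD dCLN (exact Clopper-Pearson 95% interval 0.567 to 1.17) and 0.392% in the WT dCLN (0.209 to 0.670). The difference of 0.435 percentage points had an interval of 0.0545 to 0.821. Of the IgG cells, IgG1 was 23.4% in the 5xFAD dCLN and 10.9% in the WT dCLN, a difference of 12.4 points (2.65 to 21.8). With each clone counted once, IgG1 was 17.8% of IgG in the 5xFAD dCLN and 11.2% in the WT dCLN. These clone-counted shares have no interval here, and their difference was not tested. Clones of 7, 4 and 3 IgG1 cells were among the 32 cells of the 5xFAD dCLN, while no WT dCLN clone held more than 2. The requirement of 1 heavy chain left out 31.6% of IgG1 contigs in the WT dCLN and 11.1% in the 5xFAD dCLN. Shares of cells with an isotype were 0.811% in the 5xFAD sCLN and 0.999% in the WT sCLN, and 0.336% in the 5xFAD iLN and 0.508% in the WT iLN. In both of these nodes the interval of the difference held 0 (-0.697 to 0.358 in the sCLN and -0.618 to 0.265 in the iLN). Over the 3 nodes the mean difference of 5xFAD minus WT was 0.0253 points (exact sign-flip test, two-sided, p = 1, where 0.25 is the smallest p that 3 nodes allow). All intervals cover counting error only, and cells of 1 clone are not independent.

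**Figure D1:**
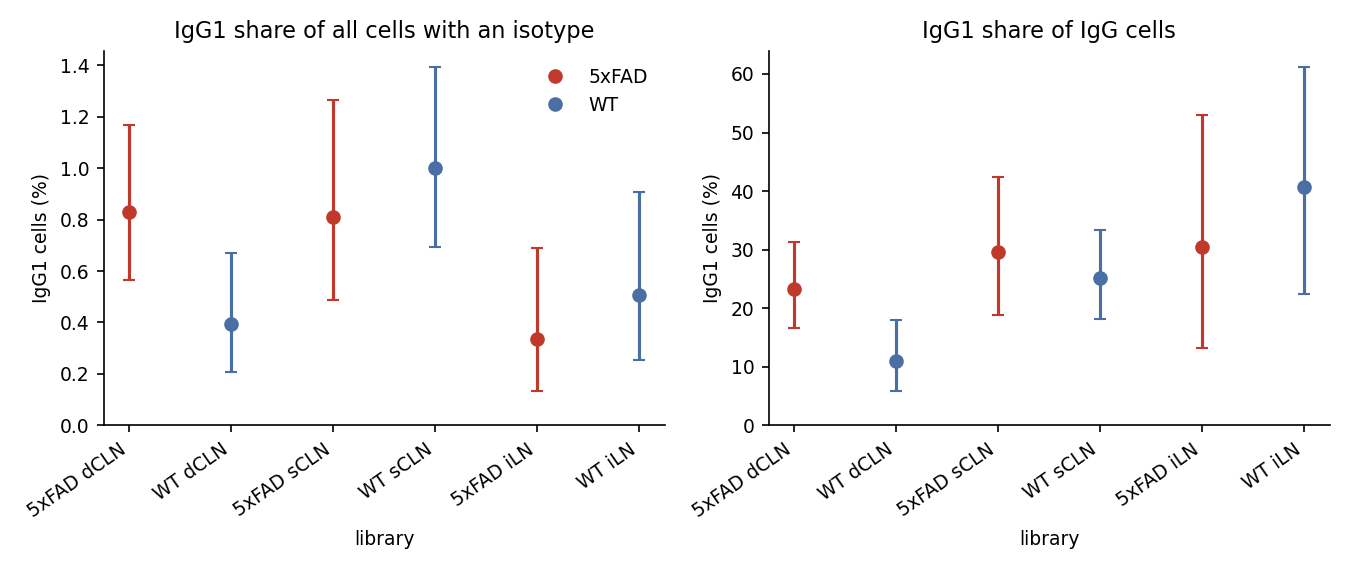
IgG1 cells as a percentage of all cells with an isotype (left axis panel) and of IgG cells (right panel) in each library, with exact 95% intervals as bars, 5xFAD in red and WT in blue. The 5xFAD dCLN point lies above the WT dCLN point in both panels, at 0.828% against 0.392% and at 23.4% against 10.9%, while in the other nodes each point lies within the interval of its pair.

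IgG1 cells carried mutated V regions in every library, whereas IgM cells were nearly all germline. Heavy chain V mutation, the percentage of V bases that differ from the called germline gene, averaged 2.89% in IgG1 cells and 0.0266% in IgM cells over the 6 libraries. The difference was 2.86 ± 0.781 percentage points (SD of the differences, n = 6 libraries) and was positive in 6 of 6 libraries (exact sign-flip test, two-sided, p = 0.031, the smallest p that 6 libraries allow). Adjusted over the 11 measures compared in this way, p was 0.115, and no measure of that family reached an adjusted p of 0.05. Among all IgG1 cells 8 had no V mutation, 88 had 1% or more and 17 had 5% or more. Among IgM cells 95.8% had none and 0.653% had 1% or more.

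Library means of IgG1 V mutation were close to each other except in the 5xFAD iLN. IgG1 cells averaged 2.38% in the 5xFAD dCLN (median 2.38%, highest 7.38%) and 2.28% in the WT dCLN (median 2.39%, highest 5.44%). They averaged 2.96% in the 5xFAD sCLN (median 2.72%, highest 7.46%) and 2.87% in the WT sCLN (median 1.87%, highest 10.4%). They averaged 4.37% in the 5xFAD iLN (median 4.39%, highest 8.48%) and 2.47% in the WT iLN (median 2.03%, highest 5.76%). The 7 cells of the 5xFAD iLN were thus the most mutated on average, and the widest range was in the WT sCLN, which held both germline cells and cells at about 10%. Light chain V regions also differed more from germline in IgG1 cells, at 2.26% against 0.167% in IgM cells. The highest IgM light chain value was the same, 21.118%, in every library but the 5xFAD iLN, where it was 8.78%. Recurrent differences from germline were masked in heavy chain mismatch counts only. Whether those of light chains are mutations was not tested. IgG1 light chains averaged 2.26% in the 5xFAD dCLN against 1.34% in the WT dCLN, 2.25% in the 5xFAD sCLN against 2.29% in the WT sCLN, and 3.18% in the 5xFAD iLN against 2.27% in the WT iLN. The lowest IgG1 library, the WT dCLN, still lay above every IgM library, the highest of which was at 0.202%. The difference of 2.10 ± 0.603 points was positive in 6 of 6 libraries (exact p = 0.031, adjusted p = 0.115).

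**Figure D2:**
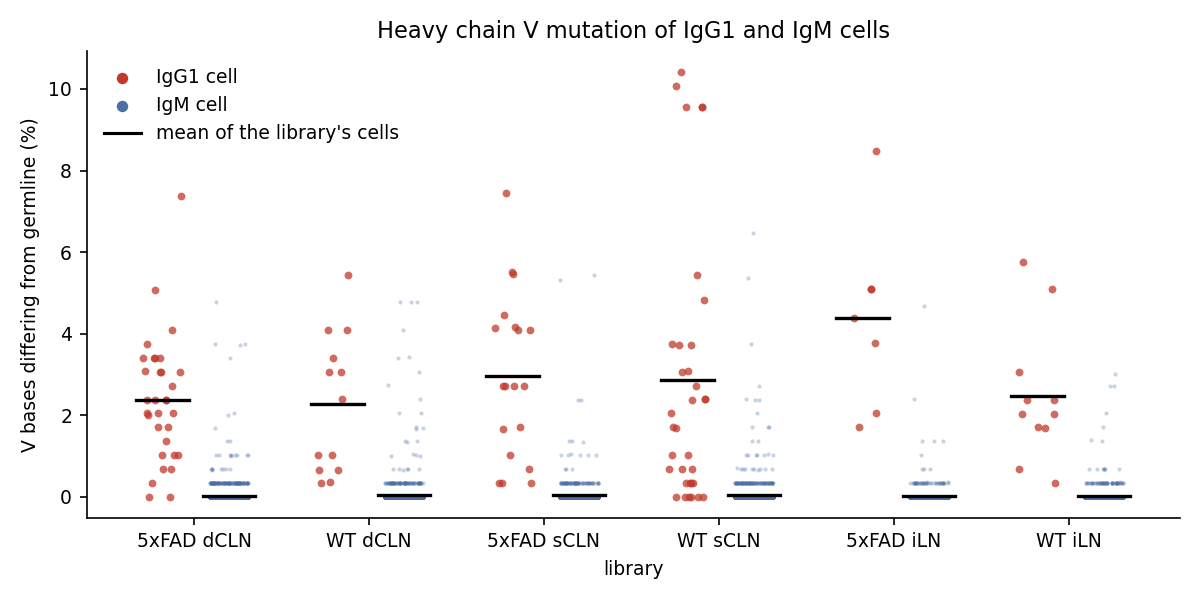
Heavy chain V mutation (percent of V bases, vertical axis) of each IgG1 cell (red) and each IgM cell (blue) in each library, with black lines at the mean of the library's cells. IgG1 means lie between 2.28% and 4.37%, and IgM means lie at or below 0.0350%.

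Changes in the IgG1 V regions were concentrated in the complementarity determining regions (CDR1 and CDR2), the loops that contact antigen, and at bases in AID hotspot motifs. Averaged over the 6 libraries, 4.95% of CDR bases and 2.52% of framework bases of IgG1 cells were changed. CDR bases were changed in 4.09% against 2.04% of framework bases in the 5xFAD dCLN, 2.90% against 2.21% in the WT dCLN, 4.99% against 2.57% in the 5xFAD sCLN, and 4.20% against 2.62% in the WT sCLN. In the iLN they were 9.52% against 3.46% in 5xFAD and 3.98% against 2.23% in WT, so the gap was widest in the 5xFAD iLN and narrowest in the WT dCLN. The difference of 2.42 ± 1.88 points was positive in 6 of 6 libraries (exact p = 0.031, also after adjustment over the 2 patterns tested). Hotspots were the C of AAC, AGC, TAC or TGC and the G of GTT, GCT, GTA or GCA, the same motifs on the opposite strand. Pooled over libraries, these bases made up 13.6% of V bases of IgG1 cells and 39.1% of their 923 mismatches. Hotspot bases were changed in 6.30% in the 5xFAD dCLN, 6.37% in the WT dCLN, 9.15% in the 5xFAD sCLN, 8.65% in the WT sCLN, 13.2% in the 5xFAD iLN and 6.63% in the WT iLN, while other bases lay between 1.70% and 3.06%. Averaged over libraries, 8.39% of hotspot bases and 2.06% of other bases of IgG1 cells were changed. This difference of 6.32 ± 2.19 points was positive in 6 of 6 libraries (exact sign-flip test, p = 0.031, also adjusted). IgM mismatches, of which there were 615 in 13024 cells, fell on hotspot bases in 40.2%. Hotspot bases held 40.8% of IgG2b and 40.5% of IgG2c mismatches. CDR bases held 27.0% of IgG1, 26.0% of IgM, 28.9% of IgG2b and 27.5% of IgG2c mismatches. Neither pattern was thus particular to IgG1 cells. C and G bases held 58.3% of the IgG1 mismatches, and 62.6% were transitions. Replacement and silent changes were counted only in codons with a single changed base, and codons with more changes were left out. Replacement changes outnumbered silent ones by 133 to 58 in IgG1 CDRs (ratio 2.29) and by 359 to 234 in frameworks (ratio 1.53). The CDR ratio was 3.13 in IgG2b cells, 3.76 in IgG2c cells and 3.76 in IgM cells, and these ratios were not tested.

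**Figure D3:**
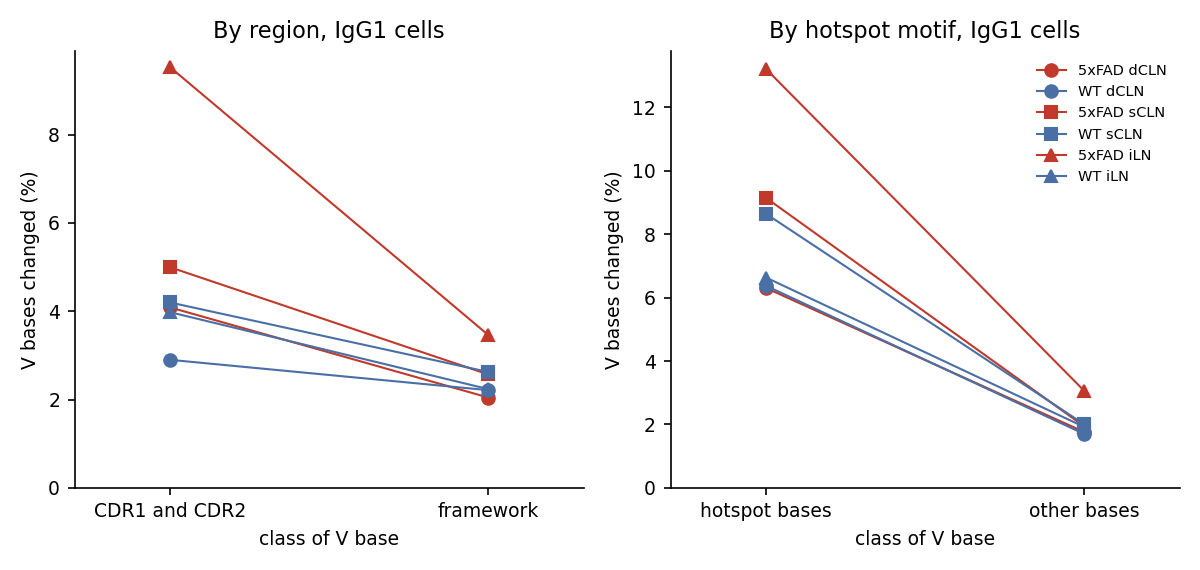
Percentage of V bases changed in IgG1 cells of each library, in CDR1 and CDR2 against framework (left) and at hotspot bases against other bases (right), 5xFAD in red and WT in blue, 1 line per library. Every line falls to the right, and the 5xFAD iLN lies highest in each class.

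Of the 5 IgG1 cells with over 9% V mutation, all in the WT sCLN, 4 came from 2 clones that used the same V gene, IGHV1-19 (chromosome 12, 114708648 to 114709135, minus strand, GRCm38), with different J genes and light chains. The other cell, with another IGHV1 gene, IGHJ4 and IGKV17-127, had 9.56%. The 2 cells with IGHJ2 and IGKV1-135 had 10.1% and 10.4% V mutation, and the 2 IGHV1-19 cells with IGHJ4 and IGKV10-96 both had 9.56%. Their 99 V bases from the start of CDR1 to the end of CDR2 are shown beside the germline bases of the deposited alignment, with bases that differ from the germline in capitals.
IGHV1-19 germline: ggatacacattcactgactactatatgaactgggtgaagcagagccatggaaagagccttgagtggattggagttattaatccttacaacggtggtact
IGHV1-19 with IGHJ2: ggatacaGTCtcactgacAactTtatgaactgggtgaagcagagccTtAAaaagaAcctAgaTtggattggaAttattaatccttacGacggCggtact
IGHV1-19 with IGHJ4: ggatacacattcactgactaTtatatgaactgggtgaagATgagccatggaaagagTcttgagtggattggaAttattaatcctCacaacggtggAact
The window of the first clone held 14 changed bases and that of the second 7. Over the whole V region the cells shown had 29 and 28 changed positions, of which 10 were changed in both clones, 5 of them to the same base. Most of these 10 positions lie outside the window shown. Of the 233 IgM cells with IGHV1-19, 229 had no mutation and 0 were changed at any of these 10 positions. With so few mutated IgM cells, the count of 0 cannot show how often these positions change.

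V gene use of IgG1 cells was spread over 44 IGHV genes, and 2 rarely used genes were more frequent in IgG1 than in IgM cells. The test was edgeR's quasi-likelihood test on cell counts with the library as a block, with Benjamini-Hochberg adjustment over the 88 genes with 10 or more cells, which held 115 of the 116 IgG1 cells. It called 2 genes higher in IgG1, 2.27% of those tested, and 0 lower (at an unadjusted p under 0.05, 6 were higher and 3 lower). DESeq2 called 9 higher and 0 lower, and edgeR with TMM scaling 0 higher and 37 lower. TMM moved the median log2 difference of all 88 genes by -0.44, but that of the 43 genes with an IgG1 cell by -2.20 and that of the 45 without one by -0.01. Both called genes rested on 1 library each, and under TMM both had an adjusted p of 0.0636.

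IGHV5-2 (chromosome 12, 113578504 to 113578990, minus strand) was used by 5 IgG1 cells, all in the WT sCLN, where it made up 14.7% of IgG1 cells (4.95 to 31.1) and 0.160% of IgM cells (0.0437 to 0.410). Over all libraries it was used by 4.31% of IgG1 cells and 0.138% of IgM cells (log2 difference 4.28, adjusted p = 0.00702, edgeR). The 5 cells came from 3 clones, with these junctions, of which the last was found in 2 cells and the second to last was grouped with it.
IGHV5-2 with IGHJ3 and IGKV1-133: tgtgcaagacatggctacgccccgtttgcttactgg
IGHV5-2 with IGHJ4 and IGKV1-135: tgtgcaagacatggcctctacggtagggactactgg
IGHV5-2 with IGHJ4 and IGKV4-59, first junction: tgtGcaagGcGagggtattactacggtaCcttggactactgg
IGHV5-2 with IGHJ4 and IGKV4-59, second junction: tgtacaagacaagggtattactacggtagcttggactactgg
Capitals mark bases that differ from the commonest base of the clone. V mutation of the 5 cells was 1.69%, 0.676%, 2.39%, 3.72% and 3.72%, and no changed V position was shared by all 3 cells with IGKV4-59. With each clone counted once the call held (log2 difference 4.27, adjusted p = 0.0449, edgeR). A further IgG1 contig of this gene, with IGHJ1, was in a WT sCLN barcode that also held an IgM heavy chain. Without the WT sCLN no IgG1 cell used the gene (fitted log2 difference -3.56, adjusted p = 0.793, edgeR).

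IGHV3-3 (chromosome 12, 114196439 to 114196875, minus strand) was used by 3 IgG1 cells, all in the 5xFAD dCLN, against 3 of 3098 IgM cells there (log2 difference over all libraries 4.42, adjusted p = 0.0120, edgeR). All 3 IgG1 cells belonged to 1 clone with IGHJ1 and IGKV4-86. With each clone counted once the log2 difference was 3.55 and the edgeR adjusted p 0.482. IGKV4-86 (chromosome 6, 68910411 to 68910973, minus strand) was the light chain V gene with the smallest p (log2 difference 3.78, adjusted p = 0.223, edgeR), and the same cells carried it.

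The most used IGHV genes of IgG1 cells did not pass the test. IGHV1-82 (chromosome 12, 115952538 to 115953005) was used by 10 IgG1 cells, 7 of them in the 5xFAD dCLN (log2 difference 1.71, adjusted p = 0.370, edgeR). Its log2 difference was 0.80 without the 5xFAD dCLN (adjusted p = 0.828, edgeR), 0.93 with each clone counted once (adjusted p = 0.666) and 2.10 without the 5xFAD sCLN (adjusted p = 0.0419). IGHV1-64 was used by 9 IgG1 cells in 5 libraries and 8 clones, the widest spread of these genes. IGHV1-18 was used by 7 cells, IGHV1-53 and IGHV9-3 by 6 each, a further IGHV1 gene by 5, and IGHV1-19, another IGHV1 gene, IGHV3-6 and IGHV8-8 by 4 each. The 3 genes with the smallest p below IgM were IGHV1-69, IGHV1-50 and IGHV5-17, each used by 0 of 116 IgG1 cells and by 269, 271 and 255 IgM cells (adjusted p = 0.403 each, edgeR). The count of 0 allows a share of up to 2.59% of IgG1 cells. Under TMM all of the IGHV genes named here other than IGHV5-2 and IGHV3-3 had a negative log2 difference.

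No IGHV family, J gene or D family passed the test between IgG1 and IgM cells. Of 17 groups tested by the exact sign-flip test over libraries, 0 passed at an adjusted p of 0.05 (0% of those tested), and 1, IGHV10, had an unadjusted p under 0.05 (5.88%). IGHV10 was used by 0 of 116 IgG1 cells, at most 2.59%, and by 1.42% of IgM cells (exact p = 0.031, adjusted p = 0.531). With 0 IgG1 cells in every library all 6 differences had to be negative. The exact p could thus only take its smallest value, and it adds nothing to the count of 0. The large IGHV1 family made up 56.9% of IgG1 cells (47.4 to 66.1) and 56.7% of IgM cells. IGHV5 made up 12.1% of IgG1 and 8.34% of IgM cells, IGHV3 6.90% and 4.39%, IGHV9 6.90% and 5.75%, IGHV2 6.03% and 8.18%, IGHV8 4.31% and 5.86%, IGHV6 2.59% and 2.50%, and IGHV14 1.72% and 4.57%. IGHJ1 was used by 25.9% of IgG1 cells (18.2 to 34.8) and 18.0% of IgM cells, with a difference over libraries of 8.97 ± 11.6 points that was positive in 4 of 6 (exact p = 0.125, adjusted p = 0.708). Pooled over libraries, IGHJ2 made up 30.2% of IgG1 and 32.8% of IgM cells, IGHJ3 17.2% and 23.5%, and IGHJ4 26.7% and 25.7%. A single D family was called in 89 IgG1 cells, of which IGHD1 made up 49.4%, IGHD2 33.7%, IGHD4 11.2% and IGHD3 3.37%, against 41.3%, 39.4%, 11.6% and 6.25% of IgM cells with such a call. Library means ran opposite to these pooled shares for IGHJ2 (IgG1 minus IgM 0.463 points), IGHJ4 (-2.82), IGHV6 (-0.217), IGHV9 (-0.307) and IGHD4 (1.03), and the IGHD1 difference over libraries was 1.64 points. IGHD1-1 alone was called in 43 IgG1 cells.

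Light chain V genes of IgG1 cells numbered 49. Gene counts, gene tests and lambda shares took only cells with exactly 1 light chain, 108 IgG1 and 11795 IgM cells. Of 79 genes tested by edgeR in the same way, 0 were higher and 0 were lower in IgG1 at an adjusted p of 0.05 (0% each way). At an unadjusted p under 0.05, 2 were higher, IGKV4-86 and IGKV4-57, and 0 lower. DESeq2 called 1 higher and 0 lower, IGKV4-86 (adjusted p = 0.0244), and TMM, which moved the median by -2.27, called 0 higher and 33 lower. IGKV10-96 (chromosome 6, 68631963 to 68632442) and IGKV4-57 (69575975 to 69576500) were each used by 8 IgG1 cells. The 8 counted cells with IGKV4-57 came from 3 clones and included 7 in the 5xFAD dCLN (log2 difference 2.17, adjusted p = 0.374, edgeR). Without that library its log2 difference was 0.17, and without the WT sCLN, the highest of the 6, it was 2.81. IGKV6-13 and IGLV1 were used by 5 cells each, and IGKV1-135, IGKV13-85, IGKV19-93 and IGKV4-59 by 4 each. None of the 108 IgG1 cells with 1 light chain used IGKV17-121, IGKV8-30 or IGKV5-48, the genes with the smallest p below IgM (adjusted p = 0.791 each, edgeR). Averaged over libraries, lambda chains made up 3.97% in IgG1 cells and 4.37% in IgM cells (exact sign-flip test, p = 0.875). A second light chain was found on average in 4.26% of IgG1 and 8.49% of IgM cells of a library (exact sign-flip test, p = 0.125).

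The third complementarity determining region (CDR3), formed where V, D and J segments join, had more N bases in IgG1 cells of 5 of 6 libraries, without passing the test. N bases are added at the joints without a template. Here they were the deposited N lengths of cells with a D call. Whether mutated bases of the V, D or J segments were counted among them was not tested. They averaged 8.66 in IgG1 cells of the 5xFAD dCLN against 7.08 in those of the WT dCLN. They averaged 8.93 in the 5xFAD sCLN against 8.06 in the WT sCLN, and 9.29 in the 5xFAD iLN against 7.56 in the WT iLN. Only the WT dCLN was level with its IgM cells. Over libraries the means were 8.26 in IgG1 and 7.08 in IgM cells. The difference was 1.19 ± 0.847 bases (exact p = 0.0625, adjusted p = 0.172). CDR3 length averaged 12.4 amino acids in IgG1 and 12.1 in IgM cells (exact p = 0.156). Lengths in IgG1 cells ran between 6 and 18 amino acids. Net charge averaged -0.487 in IgG1 and -0.292 in IgM cells (exact p = 0.344).

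Heavy chain UMIs per cell were lower in IgG1 than in IgM cells in 5 of 6 libraries and higher in the WT sCLN. Mean log2 UMIs were 3.07 in IgG1 and 3.58 in IgM cells, a difference of -0.51 ± 0.74, or 0.701 times the IgM level (exact p = 0.156, adjusted p = 0.215). Among cells with 3 or more heavy chain UMIs the difference was -0.12 (exact p = 0.75), against IgM and IgD cells together -0.31 (exact p = 0.344), and without the WT sCLN -0.79 (exact p = 0.0625). Medians in the dCLN were 12 UMIs in IgG1 and 14 in IgM cells of 5xFAD mice, and 6 and 10 in WT mice. In the sCLN they were 12 in IgG1 and 13 in IgM cells of 5xFAD mice, and 17 and 12 in WT mice. In the iLN they were 7 in IgG1 and 13 in IgM cells of 5xFAD mice, and 6 and 14 in WT mice. Light chain UMIs showed no common direction, with mean log2 values of 4.93 in IgG1 and 4.78 in IgM cells (exact p = 0.688).

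Antibody-secreting cells hold far more immunoglobulin mRNA than other B cells, and 2 IgG1 cells, both of the WT sCLN, stood far above the rest in UMIs. They had 7768 and 6170 heavy chain UMIs and 2860 and 8535 light chain UMIs, while the next IgG1 cell had 92 heavy chain UMIs. Both used IGKV6-13, and their heavy chain junctions are shown because they differ in gene and sequence.
IGHV2-2 with IGHJ3, 7768 UMIs: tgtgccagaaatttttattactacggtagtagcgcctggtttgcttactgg
IGHV1-9 with IGHJ2, 6170 UMIs: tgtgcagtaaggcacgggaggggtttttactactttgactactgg
V mutation was 1.02% in the IGHV2-2 cell and 0% in the IGHV1-9 cell. Neither was grouped with another IgG1 cell. Without these 2 cells the mean difference in log2 heavy chain UMIs was -0.60. Cells with 100 or more heavy chain UMIs were not particular to IgG1. The WT sCLN also held 5 of them among 9 IgA, 5 among 49 IgG2c, 3 among 47 IgG2b and 8 among 2494 IgM cells. The highest of these, an IgA cell, had 10152 heavy chain UMIs.

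**Figure D4:**
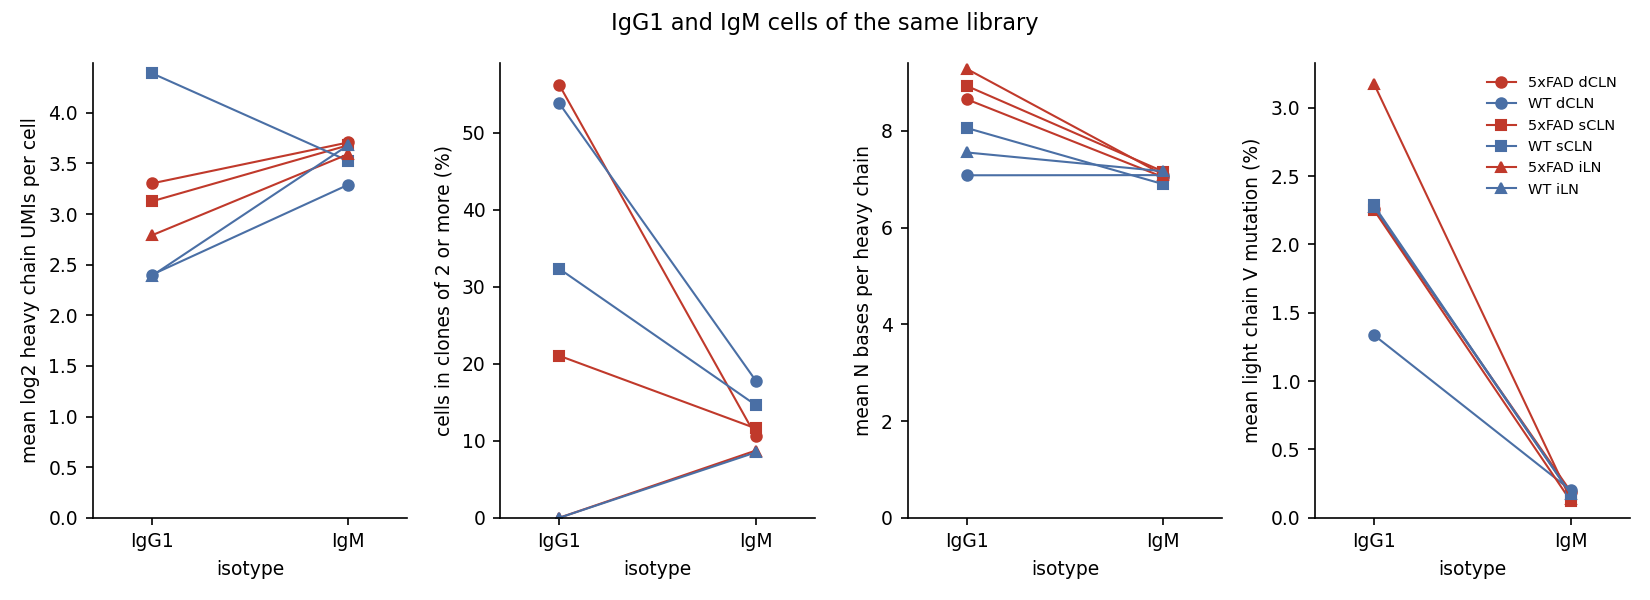
Mean log2 heavy chain UMIs, percentage of cells in clones of 2 or more, mean N bases and mean light chain V mutation of IgG1 cells (left of each panel) and IgM cells (right) in each library, joined by lines, 5xFAD in red and WT in blue. Light chain mutation is higher in IgG1 in 6 of 6 libraries, N bases in 5, the clone share in the 4 cervical libraries, and heavy chain UMIs only in the WT sCLN.

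IgG1 cells of the cervical nodes were partly in clones of 2 or more cells, and none of the inguinal IgG1 cells was. A clone joined cells of a library that use the same V and J genes and whose equally long junctions differ by at most 0.15 of their bases. In the dCLN 56.2% of IgG1 cells were in clones of 2 or more cells in 5xFAD (37.7 to 73.6) and 53.8% in WT (25.1 to 80.8). In the sCLN the shares were 21.1% in 5xFAD (6.05 to 45.6) and 32.4% in WT (17.4 to 50.5). In the iLN they were 0 of 7 cells in 5xFAD, which allows up to 42.9%, and 0 of 11 in WT, which allows up to 27.3%. IgM cells were in clones in 8.50% to 17.8% of a library. IgG1 minus IgM was 15.3 ± 22.5 points (exact p = 0.156), positive in the 4 cervical libraries and negative in both inguinal ones. It was 9.19 points without the 5xFAD dCLN and 9.78 with each clone counted once (exact p = 0.312 and 0.25). In all, the 116 cells formed 94 clones, 40 of the cells lay in 18 clones of 2 or more, and 10 receptors with identical heavy and light chain junctions were found in 22 cells.

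The clone with the most IgG1 cells was in the 5xFAD dCLN and used IGHV1-82, IGHJ4 and IGKV4-57, with 7 IgG1 cells and 1 IgM cell. Its junctions are shown because all 8 differ, with capitals at bases that differ from the commonest base.
IgG1 cell 1, 1.02% V mutation: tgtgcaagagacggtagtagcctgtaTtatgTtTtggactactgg
IgG1 cell 2, 1.70%: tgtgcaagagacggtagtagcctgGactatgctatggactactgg
IgG1 cell 3, 2.04%: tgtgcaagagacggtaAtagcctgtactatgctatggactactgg
IgG1 cell 4, 2.38%: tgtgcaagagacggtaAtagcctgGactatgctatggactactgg
IgG1 cell 5, 2.38%: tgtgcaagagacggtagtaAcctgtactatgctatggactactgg
IgG1 cell 6, 2.72%: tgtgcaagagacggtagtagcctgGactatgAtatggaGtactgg
IgG1 cell 7, 3.06%: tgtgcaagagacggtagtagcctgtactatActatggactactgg
IgM cell, 2.04%: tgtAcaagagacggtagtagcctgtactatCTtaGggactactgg
V changes in this clone lay at 29 positions, 20 of them in 1 cell only, and 0 were shared by all 8 cells. The IgM cell had 148 heavy chain UMIs and the IgG1 cells 2 to 30. A further IgG1 contig of the same clone was in a barcode with a second heavy chain.

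The next clone of the 5xFAD dCLN showed the opposite picture. Its 4 IgG1 cells with IGHV1-18 and IGHJ2, 3 of which had a light chain and all of these IGKV19-93, had 1 junction.
IGHV1-18 with IGHJ2: tgtgcaagaggctgggtccttgactactgg
They shared 8 of the 11 changed V positions, at 3.06% to 3.40% mutation, and 2 more IgG1 contigs of this clone were in barcodes with a second heavy chain. The IGHV3-3 clone held 3 IgG1, 1 IgG3 and 2 IgM cells, all with IGKV4-86 and all at 1.02% mutation or below. All its switched cells and 1 of its IgM cells had the first of these junctions, and the other IgM cell the second.
IGHV3-3 with IGHJ1, IgG1, IgG3 and IgM: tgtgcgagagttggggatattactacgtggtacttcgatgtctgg
IGHV3-3 with IGHJ1, IgM: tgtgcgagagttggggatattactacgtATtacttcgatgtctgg
The 4 other 5xFAD dCLN clones held 1 IgG1 cell each, at 2.00% to 3.40% mutation. The IGHV1-15 clone paired it with an IgM cell that had the same junction, 9 shared V changes and 3.40% mutation.

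In the WT dCLN the largest clone with IgG1 cells used IGHV1-26 (chromosome 12, 114788372 to 114788805) and IGHJ2 and held 2 IgG1, 2 IgG2b and 2 IgG2c cells. It had these junctions.
IGHV1-26 with IGHJ2, IgG1 and 1 IgG2c cell: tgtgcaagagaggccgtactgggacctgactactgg
IGHV1-26 with IGHJ2, IgG2b and 1 IgG2c cell: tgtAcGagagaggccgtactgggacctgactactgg
The 2 IgG1 cells shared 12 changed V positions, and only 2 positions were changed in all 6 cells. The IGHV9-3 clone held 2 IgG1 cells and 1 IgA cell with 9 V changes shared by all. The IGHV8-8 clone joined 2 IgG1 cells to an unmutated IgM cell with 7 different junction bases and another light chain. In the 5xFAD sCLN, 2 clones held 2 IgG1 cells each, IGHV1-53 with IGKV13-85 at 1 UMI a cell and IGHV6-6 with IGKV2-109, whose cells shared 2 of 18 changed positions. In the WT sCLN the IGHV7-3 pair with IGKV10-96 had no V mutation, and the IGHV1-64 pair was joined by an IgM cell with another light chain. Of the 18 clones, 6 held IgM cells and 6 held cells of another switched isotype.

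**Figure D5:**
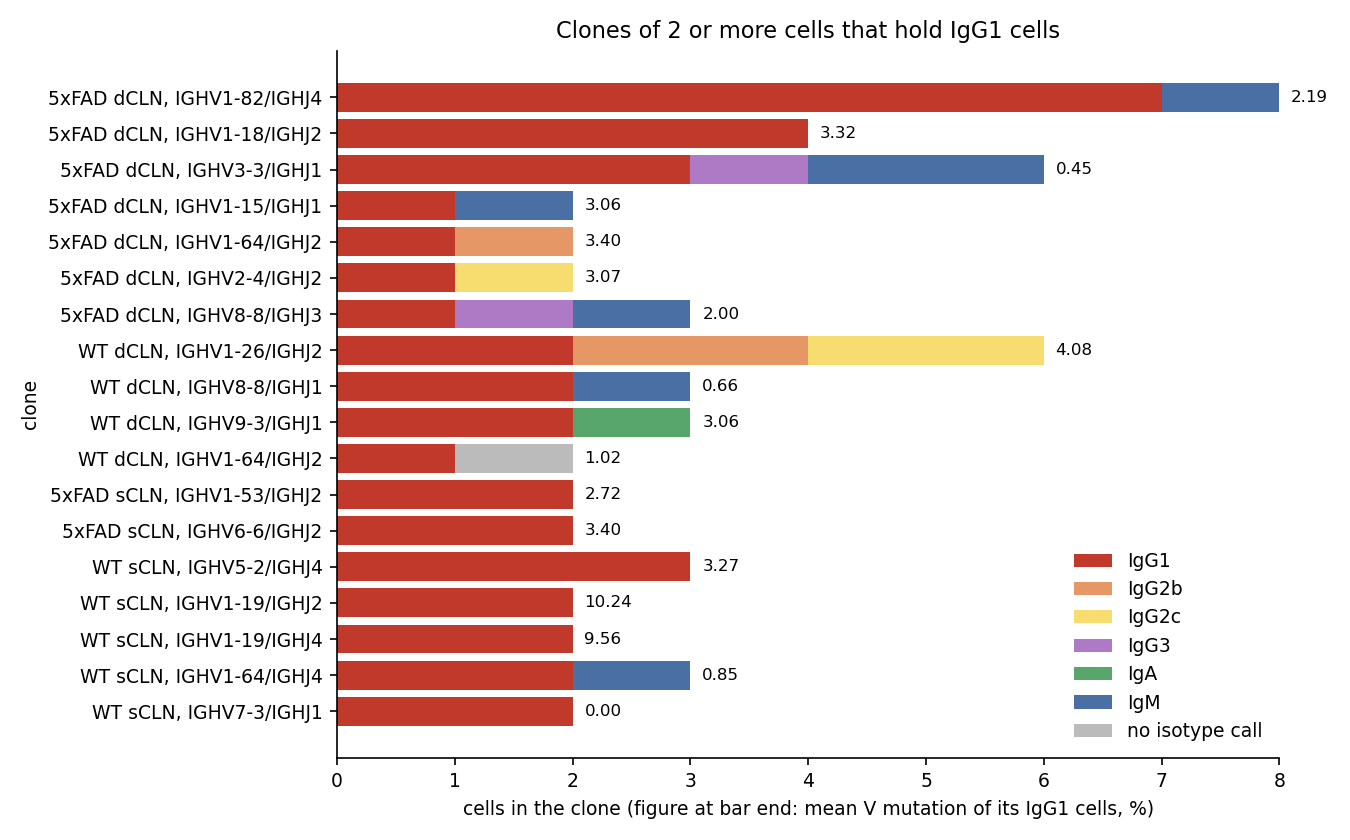
Number of cells of each isotype (horizontal axis) in the 18 clones of 2 or more cells that hold IgG1 cells, named by library, V gene and J gene, with the mean V mutation of their IgG1 cells in percent at the bar end. All clones with more than 1 isotype lie in the dCLN except the IGHV1-64 clone of the WT sCLN, and mutation runs between 0% and 10.2%.

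When clones were formed over all 6 libraries, 8 held IgG1 cells together with cells of another library, and none of these 8 held IgG1 cells in 2 libraries. With the same light chain required, 2 were left. The IGHV6-6 and IGHJ2 clone joined the 2 IgG1 cells of the 5xFAD sCLN to 1 IgG2b cell of the 5xFAD dCLN, with up to 3 of 27 junction bases different. The IGHV1-15 and IGHJ1 clone joined 1 IgG1 and 1 IgM cell of the 5xFAD dCLN to an IgM cell of the WT sCLN, with 6 of 51 bases different between the IgG1 cell and that cell. The WT sCLN library is of the other genotype and so of other mice.

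Set against the other main IgG classes, IgG1 cells showed no difference that passed the test. V mutation averaged 2.89% in IgG1 cells against 2.21% in IgG2b cells (difference 0.675 ± 1.17 points, n = 6 libraries, exact p = 0.25) and 2.60% in IgG2c cells (0.286 ± 2.05 points, exact p = 0.969). Without the 5xFAD iLN, whose 3 IgG2c cells had no V mutation, the difference from IgG2b was 0.292 points and that from IgG2c was -0.531 points (exact p = 0.125). In each of the 4 cervical libraries IgG1 cells averaged less V mutation than IgG2c cells, with IgG1 minus IgG2c between -1.06 and -0.0762 points. Cells with no V mutation made up 6.90% of IgG1, 21.8% of IgG2b and 14.8% of IgG2c cells pooled over libraries. IgG1 cells were in clones in 27.3% on average, against 20.0% of IgG2b and 23.4% of IgG2c cells. Mean log2 heavy chain UMIs were 3.07 in IgG1, 3.55 in IgG2b and 3.24 in IgG2c cells. Over the 8 comparisons of V mutation, CDR3 length, UMIs and clone share, adjusted p was between 0.875 and 0.969 (exact sign-flip test). IgG2c shares rest on as few as 3 cells in the 5xFAD iLN.

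Between genotypes, IgG1 cells of 5xFAD libraries had higher values than those of WT libraries in all 3 nodes for 4 measures and lower values for 1, but 3 nodes cannot give an exact p below 0.25. V mutation of 1% or more was found in 84.4% of IgG1 cells of the 5xFAD dCLN against 69.2% of the WT dCLN. The shares were 78.9% in the 5xFAD sCLN against 61.8% in the WT sCLN, and 100% in the 5xFAD iLN against 81.8% in the WT iLN. The mean difference was 16.8 ± 1.55 points (SD, n = 3 nodes, exact p = 0.25, adjusted p = 0.55 over 11 measures). In 5xFAD and WT these shares rest on 32 and 13 cells (dCLN), 19 and 34 (sCLN), and 7 and 11 (iLN). The SD is the spread between the 3 node differences, and the counting error of the shares is not given here. Mean V mutation differed by 0.101, 0.0972 and 1.90 points in dCLN, sCLN and iLN, so the mean difference of 0.700 rests on the iLN. It did not have the same sign in all 3 nodes among cells with 3 or more heavy chain UMIs (mean 0.462, exact p = 1) or with a light chain (0.577, exact p = 0.75). N bases differed by 1.57, 0.871 and 1.73 and CDR3 length by 0.320, 1.18 and 1.09 amino acids in the same order. Among cells with 3 or more heavy chain UMIs the mean difference in CDR3 length was 0.433 (exact p = 0.5), and not all 3 nodes had the same sign. Net charge was lower in 5xFAD by 0.531, 0.983 and 0.130. Taken over all IgG1 cells, each of these measures had an exact p of 0.25 (sign-flip test). Heavy chain UMIs, clone share and light chain V mutation changed sign between nodes.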

How the data were processed

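Lymph node cells stained with hashtag antibodies went into 10x 5' V(D)J libraries, per the labels' protocols. The submitters' processing notes name Cell Ranger 6.0.1, Seurat 4.1.0 and mm10, while the sources used here do not give the germline set. UMIs are counts as the authors deposited them. V identity is a fraction the authors deposited, and V mutation is 1 minus it, in percent. The authors also deposited junction and N lengths, in bases.

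Members, measures, lists and tests were chosen with earlier results of these data known. Cells with several heavy chains were left out, and no doublet caller was run, since gene expression was not used here. Measures were averaged per library and isotype and compared by two-sided exact sign-flip tests over 6 libraries or 3 nodes, with Benjamini-Hochberg adjustment. V genes with 10 or more cells were tested as cell counts with edgeR 4.0.16 (quasi-likelihood, library block, cell totals as library sizes), and DESeq2 1.42.0 was an alternative, in R 4.3.3. The gene script was tested on simulated data. Other steps used Python 3.11.15, pandas 2.3.3 and SciPy 1.17.1. In the mismatch counts, CDR1 and CDR2 were IMGT bases 79 to 114 and 166 to 195, bases beyond 312 were not used, and positions changed in 50% or more of the unswitched cells of a V call (5 or more cells) were masked. Shares have exact Clopper-Pearson 95% intervals for counting error alone, differences of shares combine both intervals by square-and-add, and for 0 cells the limit is 3 cells of the total.

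Named were the IGHJ genes, the IGHV and IGHD families with at least 1% of cells, the 8 IGHV and 6 light chain V genes most used by IgG1 cells with ties, genes past an adjusted p of 0.05 or else the 3 with the smallest p in a direction, and clones with 3 or more IgG1 cells. Other clones, cells of very high UMIs and the IGHV1-19 windows were chosen after their values were seen. Coordinates are from GENCODE M21 on GRCm38 (mm10), where 43 of 43 names looked up were found. A library of mixed nodes and genotypes entered no comparison.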

Additional observations from a re-analysis of the deposited data

Results flagged for a closer look

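Of 27 quantities looked at over the 6 libraries, 4 had 1 library past Dixon's 95% critical value. The value compared was its gap to the nearest other library, as a share of the range. Chance gives this in about 1 of 20 quantities. The 27 are not independent, since each measure compared with IgM enters as the IgG1 value and as IgG1 minus IgM. Their count therefore cannot be set against that rate. IgG1 V mutation was 4.37% in the 5xFAD iLN, with 7 cells, and there the difference of IgG1 minus IgM was 4.35 points. The CDR minus framework rate of IgG1 cells was 6.07 points in the same library, from the same 7 cells. IgG1 cells of the WT dCLN had 2 light chains in 16.7%, which is 2 of 12 cells with a light chain.

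For several measures, IgG1 minus IgM had one sign in both or all libraries of a group and the opposite sign in another group, and these differences were not tested. The clone share difference was 40.8 points in the dCLN and 13.6 in the sCLN, against -8.62 in the iLN. Light chain UMIs differed by -0.28 on the log2 scale in the dCLN and 0.94 in the sCLN. The lambda share differed by -4.04 points in the dCLN and 2.68 in the sCLN. IGHD2 differed by -18.3 points in the dCLN and 15.6 in the iLN. IGHV1 differed by 9.52 points in 5xFAD libraries and -6.69 in WT libraries, and IGHD4 by -10.1 in 5xFAD and 12.2 in WT libraries.

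The mixed library, which entered no comparison, held 4 IgG1 cells of 169 switched cells, 2.37% (0.649 to 5.95), while the other 6 libraries had between 9.56% and 35.5%.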

How the results depend on the processing

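V mutation of IgG1 minus IgM stayed between 2.80 and 2.92 points under every alternative that kept all libraries, with an exact p of 0.031 each, including 2 chosen after seeing the data (2.88 without the 2 cells of very high UMIs and 2.92 without barcodes found in other libraries). Leaving out 1 library gave 2.56 to 2.98, and with 5 libraries no exact p can be below 0.0625. For that reason the CDR minus framework rate (1.69 to 2.77 without 1 library) and the hotspot minus other rate (5.56 to 6.68) no longer passed. IGHV genes higher in IgG1 numbered 1 to 3 without 1 library (1 without the 5xFAD dCLN or the WT sCLN), 9 with DESeq2, 0 with TMM and 1 with each clone counted once, and 37 were lower with TMM. Light chain genes numbered 1 higher with DESeq2 and 33 lower with TMM. Under TMM IGHV5-2 and IGHV3-3 had an adjusted p of 0.0636 each (edgeR). IGHV5-2 had a log2 difference of -3.56 without the WT sCLN, a fitted value on 0 IgG1 cells, and up to 5.00 without another library.

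Differences near 0 changed sign. The lambda share was 0.145 with heavy chain UMIs of 3 or more and ran between -1.41 and 0.391 without 1 library (0.318 without the 5xFAD dCLN, 0.337 without the WT dCLN, 0.391 without the 5xFAD iLN). Light chain UMIs ran between -0.0408 (without the WT sCLN) and 0.364. IgG1 minus IgG2c clone share was -1.02 with each clone counted once and -3.29 (without the 5xFAD dCLN) to 11.3 without 1 library, CDR3 length -0.369 to 0.0568 (without the WT sCLN), and V mutation -0.531 (without the 5xFAD iLN) to 0.555. IgG1 minus IgG2b CDR3 length was -0.146 to 0.442, and negative without the 5xFAD dCLN, WT dCLN or 5xFAD sCLN. The cause was not tested. No paired analysis was possible because every group has 1 library, apart from the pairing by library and by node that the tests already use. A gene at 0 IgG1 cells may still be used by up to 2.59% of all 116 cells (2.78% for light chains), and within a library by up to 8.82% to 42.9%.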

Other observations

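The 4 IgG1 cells of the mixed library used IGHV1-9, IGHV1-52, IGHV5-17 and IGHV1-39, at 0.68%, 2.04%, 6.46% and 6.80% V mutation and with 16, 6, 9 and 6 heavy chain UMIs. Of these, 2 had the lambda gene IGLV1. None fell into a clone with a cell of the other 6 libraries.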
